A study of Bombus terrestris with 16 samples.

Results

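Gut gene expression was compared between Bombus terrestris workers exposed to genotype 161 and workers exposed to genotype 068 of Crithidia bombi. Bombus terrestris is a bumblebee, and Crithidia bombi is a trypanosome that bees swallow and that lives in their gut. The comparison used 8 of 16 libraries, 4 after each genotype, chosen by the treatment named in the labels and not by any measured value. The 4 colonies, labelled K, L, S and T, each gave 1 library per exposure, so that libraries pair by colony. A library held the pooled gut RNA of 3 workers, which were 7 d old and had been exposed 18 h before. The other 8 libraries, 4 controls and 4 exposed to genotype 075, came from the same colonies, age and time. They shared in the choice of genes tested, the scaling, the colony terms and the estimate of the spread. Their levels are given beside the 8 for some genes only, for reference. Infection itself was not measured in these files.

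In an insect gut, epithelial cells meet swallowed parasites with reactive oxygen made by dual oxidases, with antimicrobial proteins switched on by the Toll and Imd pathways, and with a chitin and mucin lining that separates food from cells. Molecular chaperones keep proteins folded: Hsp70 binds unfolded chains that DnaJ (Hsp40) proteins bring to it, Hsp90 matures signalling proteins, and small heat shock proteins of the alpha-crystallin family hold unfolded proteins until they can be refolded. Whether a Crithidia strain establishes is known to depend on the pairing of host colony with parasite genotype, and the title of the study names such specificity.

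Library totals were 8.47 to 9.09 M reads in the 8 libraries, and 9158 to 9627 of 10635 transcript records, called genes here, had at least 1 read. Levels are CPM, read counts scaled to a common library size with TMM factors, and are given in the order K, L, S, T. They compare libraries for 1 gene and not genes with each other, since they are not divided by length. Differences are log2, 161 minus 068, over 4 colonies. Their standard error is the size of the difference over the square root of the F statistic of edgeR's quasi-likelihood test. That test draws its spread from all 16 libraries. In bulk tissue, fewer cells of a type and less RNA per cell cannot be told apart. The tissue matched its label: digestive proteases and peptidases took 6.8% to 9.64% of reads in the 8 libraries, and digestive carbohydrases and lipases took 9.53% to 14.1%. Markers listed for other tissues were also present. Those of the Malpighian tubules, the excretory tubes that join the gut, took 0.878% to 1.23% of reads in the 8 libraries. That list holds genes of the V-type proton pump, so its share is not read as tubule tissue. Muscle markers took 0.166% to 0.26% of reads, nervous system markers 0.44% to 0.545%, hemocyte (blood cell) markers 0.00722% to 0.0133% and germ line markers 0.000852% to 0.0023%. A single gene of the nervous system list, a synaptic vesicle glycoprotein 2 transporter, took a mean of 0.112% of reads. The share of that list is therefore not read as nervous tissue. The L library after genotype 161 stood apart from the other 7, at 68.22 on a first principal component that held 42.6% of the variance, where the other 7 lay between -37.48 and 18.93. Where a printed difference or list median moves by over 1.5 times or turns in sign when colony L is left out, the value without L is given beside it.

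No gene passed an adjusted p of 0.05 between the genotypes among 8406 genes tested (0% called), and the smallest adjusted p by edgeR was 0.9995. At an unadjusted p under 0.05 there were 153 genes, 1.82% of those tested, of which 69 (0.821%) were higher and 84 (0.999%) were lower after genotype 161. About 5% would be expected at that threshold if no gene differed, so the 153 are not an excess. DESeq2 also called 0 genes and limma-trend 0, and by the same unadjusted threshold they held 171 (2.03%) and 167 (1.99%). The 4 values after 161 lay wholly above the 4 after 068 for 43 genes (0.512%) and wholly below for 79 (0.94%). The direction was the same in all 4 colonies for 647 genes (7.7%), 270 higher (3.21%) and 377 lower (4.48%). If the direction in each colony were random, a larger share would agree in all 4, so the 647 are not an excess. No such reference was worked out for the counts without overlap, and they are not read as an excess either. The values below therefore describe these libraries, and none is a called difference.

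**Figure D1:**
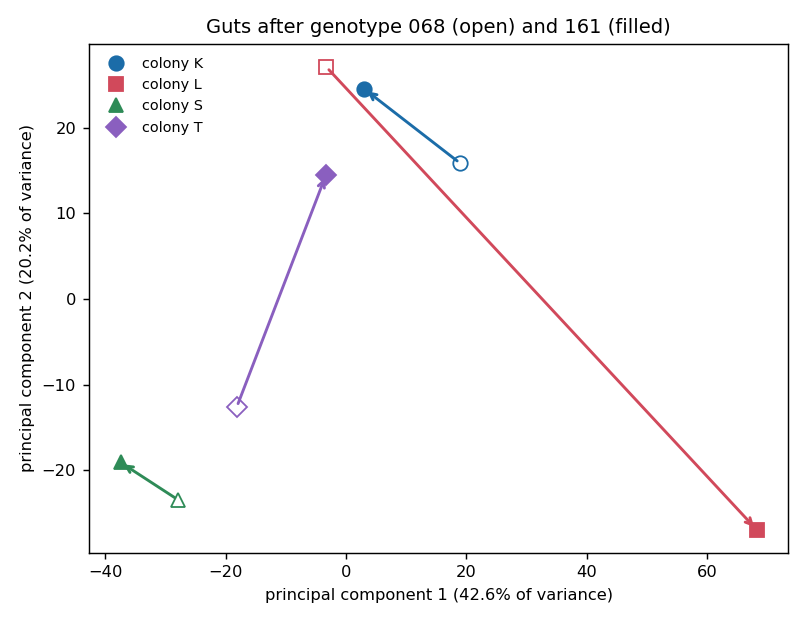
Scores of the 8 libraries on the first 2 principal components of log2 CPM, with open symbols for genotype 068, filled symbols for 161 and an arrow from 068 to 161 in each colony. The K and S arrows run up and to the left, the T arrow runs up and to the right, and the L arrow, the longest, runs down and to the right, ending at 68.22 on the first component.

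The colonies did not move together from 068 to 161. The spread of the log2 difference over genes was 0.596 in K, 1.006 in L, 0.516 in S and 0.608 in T (SD over 8406 genes). More than 2-fold apart were 666 genes (7.92%) in K, 1978 (23.5%) in L, 433 (5.15%) in S and 554 (6.59%) in T. In K most of these were higher after 161, 433 against 233 lower. In L, S and T most were lower, 1242 against 736, 264 against 169 and 390 against 164. Across genes, which are not independent replicates, the difference in K and the difference in L correlated at r = -0.24, and L with S at r = -0.17. The other 4 pairs of colonies lay between r = -0.043 and r = 0.076. These correlations compare separate pairs of libraries and carry no test. With 1 pool per colony and genotype, a response particular to a colony and noise between pools cannot be told apart.

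**Figure D2:**
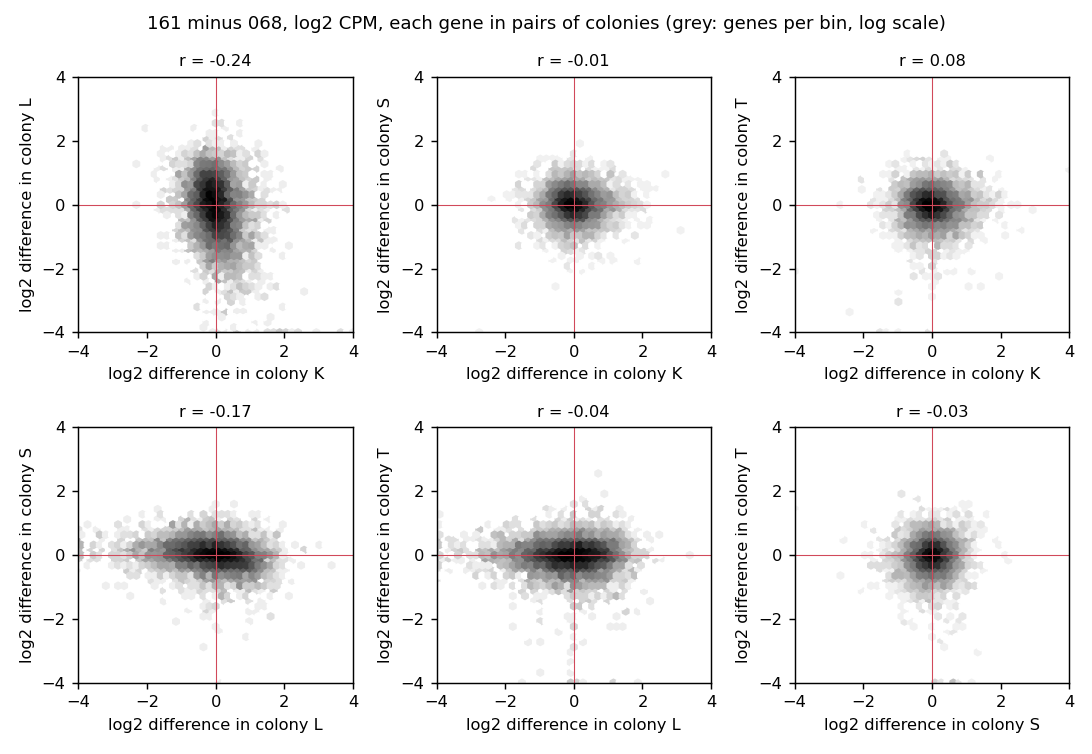
Each panel plots the log2 CPM difference, 161 minus 068, of 8406 genes in 1 colony against the same difference in another, with darker grey for more genes per bin and values beyond 4 drawn at the edge. No panel shows a cloud along the rising diagonal, and L has the widest spread, with SD 1.006.

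Colony accounted for 52.0% of the sum of squares over the 8 libraries (3 degrees of freedom), genotype for 9.24% (1 degree of freedom) and the remainder for 38.8% (3 degrees of freedom). Without colony L the shares were 57.2%, 14.7% and 28.1%. Within a colony, the 161 and 068 libraries lay 0.516 to 1.006 apart, with a median of 0.602 (SD of the log2 difference over genes). Libraries of different colonies lay 0.542 to 0.804 apart after 068 and 0.588 to 1.164 apart after 161. The 068 libraries were 0.48 to 0.623 from the 075 libraries of their colony, and the 161 libraries were 0.62 to 0.954 from them. The ranges for 068 with 161 and for 068 with 075 overlapped, and their difference was not tested.

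Several heat shock chaperones were lower after genotype 161 than after 068 in every colony. Of 43 heat shock and chaperone genes tested, of 50 matched by description, 4 had all values after 161 below all values after 068, or 9.3% of the list beside 0.94% of all genes tested. The 4 were a DnaJ, a pair of HtpG genes and an alpha-crystallin. By direction alone, the same 4 were the ones lower in all 4 colonies (9.3% of the list, beside 4.48% of all genes tested). In the other direction, 1 of the 43 was higher in all 4 colonies, beside 3.21% of all genes tested. That was a further Hsp70 gene, XR_132302.1, at or under 2.42 CPM in all 8 libraries, with a difference of 0.49 ± 0.48. None of the 43 passed the test.

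DnaJ homolog subfamily B member 1 (LOC100645002, XM_003395466.1), a co-chaperone that delivers unfolded proteins to Hsp70, was at 172, 196, 253 and 184 CPM after genotype 068. After 161 it was at 125, 97.8, 129 and 119 CPM. The lowest 068 library thus lay above the highest 161 library. The difference was -0.79 ± 0.20 (SE of the 16-library fit, 4 colonies, edgeR unadjusted p = 0.00156, adjusted p = 0.9995). It was lower in 4 of 4 colonies, from -0.47 in K to -1.0 in L, and the fitted difference ran from -0.86 to -0.69 over the 15 alternatives tried. Controls were at 159, 131, 169.7 and 135 CPM and lay between the groups, above every 161 library and below every 068 library. After 075 the gene was at 286, 137, 129 and 167 CPM, with K the highest of all 16 libraries.

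The first of the HtpG genes, members of the Hsp90 family (LOC100645524, XM_003396849.1), was at 767, 760.3, 706 and 634 CPM after 068. After 161 it was at 285, 313, 503 and 431 CPM, so that the groups did not overlap. The difference was -0.87 ± 0.56 (unadjusted p = 0.141), with -1.43 in K, -1.28 in L, -0.49 in S and -0.56 in T. The other exposures were more spread: controls were at 563, 203, 414 and 66.9 CPM, and the 075 libraries at 1759.9, 250.0, 209 and 712 CPM. The 4 libraries after 068 were thus closer to each other than the 4 of any other exposure were.

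The second HtpG gene (LOC100645819, XM_003393081.1) was at 237, 206, 159.9 and 192 CPM after 068 and at 119.9, 88.7, 139.7 and 103 CPM after 161. The groups did not overlap, though in S they were only -0.19 apart, and the difference was -0.81 ± 0.40 (unadjusted p = 0.061). Its control values of 151, 121, 161 and 45.2 CPM and its 075 values of 417, 107, 80.8 and 219.8 CPM had T as the lowest control and K as the highest 075 library, as for the first HtpG gene.

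Alpha-B crystallin (XM_003393513.1), named so after the vertebrate protein and a small heat shock protein, was at 318, 228, 341 and 229.8 CPM after 068. It was at 148, 142, 187 and 156 CPM after 161, below every 068 library, with a difference of -0.79 ± 0.27 (unadjusted p = 0.0104). Controls were at 169, 132, 161 and 122 CPM, within or below the range after 161 of 142 to 187. The 075 libraries were at 442, 153, 118 and 216 CPM, so that K was again the highest of the 4.

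**Figure D3:**
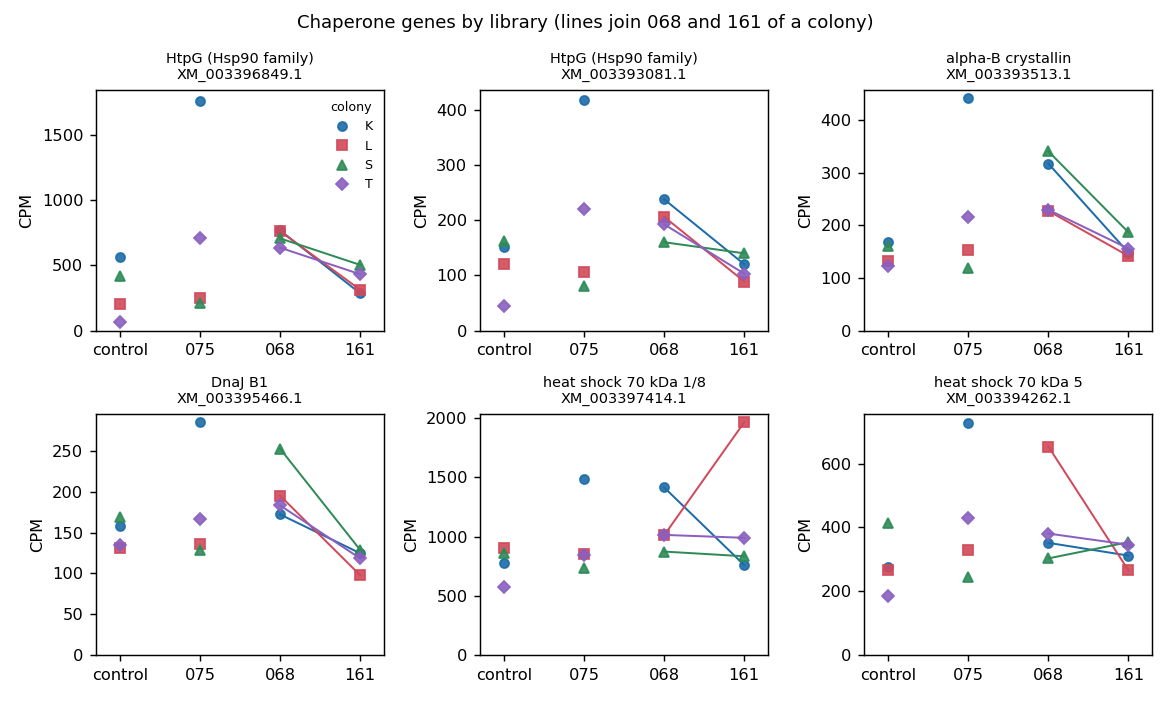
CPM of 6 chaperone genes in each library, by exposure on the x axis, with lines joining the 068 and 161 libraries of a colony. In the first 4 panels every line runs downward and the 068 and 161 values do not overlap. In the last 2 they overlap, and L after 161 is the highest library for heat shock 70 kDa protein 1/8, at 1967 CPM.

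The other 39 tested chaperones overlapped between the genotypes. Heat shock 70 kDa protein 1/8 (LOC100645451, XM_003397414.1), an Hsp70, was at 1415, 1012, 873 and 1014 CPM after 068 and at 759, 1967, 834 and 989.7 CPM after 161. It was lower in K and far higher in L, with a difference of 0.05 ± 0.27 that was -0.32 without colony L. Heat shock 70 kDa protein 5 (LOC100644323, XM_003394262.1), the Hsp70 of the endoplasmic reticulum known as BiP, was at 352, 654, 303 and 381 CPM after 068 and at 311, 265, 354 and 346 CPM after 161. It was far lower in L and higher in S, with a difference of -0.39 ± 0.33 that was -0.04 without colony L. The Hsp90 of the endoplasmic reticulum (heat shock protein 90 kDa beta, LOC100649277, XM_003401877.1) had the same order, with 272, 424, 191 and 251 CPM against 199, 163, 241 and 222 CPM, and was higher after 161 in S alone; its difference of -0.46 ± 0.35 was -0.10 without L. The mitochondrial chaperonin GroEL (LOC100644817, XM_003399581.1) differed by -0.42 ± 0.29 and heat shock protein 110 kDa (LOC100646893, XM_003394033.1) by -0.27 ± 0.23, or -0.13 without L, both higher after 161 in S and lower in K and L.

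Across the list, 12 of the 43 were higher and 31 lower after 161, with a median of -0.093 beside -0.017 over all genes tested. The median was -0.174 in K, -0.283 in L, 0.04 in S and -0.047 in T, and -0.035 without colony L. At an unadjusted p under 0.05, 0 were higher and 3 lower (7.0% of the list, beside 0.999% of all genes tested): the DnaJ, the alpha-crystallin and a further Hsp70 gene, XM_003397415.1, at or under 1.82 CPM in all 8 libraries. The summed level was 4835 to 5781 CPM after 068 and 3843 to 4956 CPM after 161, so the groups overlapped in sum, with controls at 3007 to 4569 CPM and 075 libraries at 3630 to 8111 CPM. The list was matched by description with earlier results of these data known.

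The other described genes that were lower after 161 without overlap, at a mean of at least 10 CPM, did not all come from a single list. Those with the widest gaps, or with the smallest p values of all described genes or of a list, are given here one by one. A glucuronosyltransferase (LOC100647883, XM_003402876.1), an enzyme that couples sugars to foreign or waste compounds to make them soluble, was at 825, 785, 962 and 793 CPM after 068. After 161 it was at 520.1, 621, 557 and 657 CPM, and the difference was -0.50 ± 0.22 (unadjusted p = 0.0393). Controls, at 343, 502, 928 and 693 CPM, spread across both groups.

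Hexokinase (XM_003394910.1), which traps glucose in the cell by phosphorylating it, was at 14.6, 15, 15.1 and 17.5 CPM after 068 and at 8.03, 8.55, 12.5 and 11.2 CPM after 161. The difference was -0.63 ± 0.23 (unadjusted p = 0.0154), from -0.84 in K to -0.26 in S. Phosphoglucomutase (LOC100648849, XM_003393182.1), which links glucose 6-phosphate to glycogen and trehalose synthesis, was at 23.2, 33, 28.9 and 31.7 CPM after 068. After 161 it was at 20.6, 11.5, 21.2 and 22.3 CPM, and L was the low library of that group. Its difference of -0.63 ± 0.19 was -0.38 without colony L.

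L-iditol 2-dehydrogenase (XM_003402854.1), also called sorbitol dehydrogenase, was at 64.7, 62.2, 60.3 and 54.9 CPM after 068 and at 43.7, 47.9, 40.5 and 44.8 CPM after 161, with a difference of -0.45 ± 0.19 (unadjusted p = 0.0361). ABC transporter G1 (LOC100644270, XM_003401442.1), of a family that moves sterols and pigments across membranes, was at 97.4, 89.4, 73.4 and 70.1 CPM after 068 and at 67.1, 58.8, 51.8 and 52.5 CPM after 161. Its difference of -0.52 ± 0.18 was close to even over the colonies, from -0.60 in L to -0.42 in T. Control values of the dehydrogenase, at 37 to 57.6 CPM, reached below the 161 range and into the 068 range. Those of the transporter, at 56.9 to 63.2 CPM, lay within the 161 range.

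The phosphatase PGAM5 (LOC105665848, XM_003396013.1), a mitochondrial enzyme, was at 26.5, 21.3, 27 and 21.6 CPM after 068 and at 20.1, 18.2, 19.2 and 16.6 CPM after 161. Thioredoxin 1 (LOC100649784, XM_003400917.1), a small protein that reduces oxidised proteins, differed by -0.29 ± 0.12, or -0.17 without colony L, and in S it was at 67.3 and 67.1 CPM, nearly level. The proteasome subunit T1 (XM_003394689.1), an ATPase of the cap that unfolds proteins for breakdown, was at 72.1 to 82.5 CPM after 068 and at 64 to 71.1 CPM after 161. Its difference was -0.18 ± 0.09, smaller than those of the enzymes above. Ribonuclease HI (XM_003394107.1), RNA polymerase subunit RPAC2 (XM_003402986.1) and cell cycle related kinase (LOC100650752, XM_003403276.1) were also lower after 161 without overlap, all at under 3.4 CPM.

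Genes that were higher after 161 without overlap were fewer, 43 against 79. The mitochondrial oxoglutarate carrier (solute carrier family 25 member 11, XM_003400507.1), which exchanges oxoglutarate for malate across the inner membrane, was at 4.55, 8.16, 8.89 and 8.88 CPM after 068. After 161 it was at 15.1, 16, 11 and 15.8 CPM, higher in 4 of 4 colonies, and the difference was 0.97 ± 0.28 (unadjusted p = 0.0044). Controls, at 8.5, 18.2, 7.22 and 12.1 CPM, again spread across both groups.

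Myosin I (LOC100651651, XM_003398601.1), an unconventional myosin found in the microvilli of gut cells in many animals, was at 105, 122, 133 and 124 CPM after 068 and at 141, 148, 138 and 179 CPM after 161, a difference of 0.32 ± 0.13. The large subunit of DNA primase (XM_003400221.1), which starts DNA strands in replication, was at 13.8 to 19.2 CPM after 068 and at 20.4 to 30.9 CPM after 161, a difference of 0.55 ± 0.24. JNK-interacting protein 3 (deposited as mitogen-activated protein kinase 8 interacting protein 3, XM_003395922.1), a scaffold of the stress kinase JNK and of axonal transport, was at 48.4 to 54.2 CPM after 068 and at 56.1 to 62.6 CPM after 161. Its difference was 0.25 ± 0.11 (unadjusted p = 0.0333), between 0.19 and 0.31 in each colony.

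The kinase PRP4 (XM_003396866.1), which acts in splicing, differed by 0.35 ± 0.15, or 0.22 without colony L. Kinase suppressor of Ras 1 (XM_003394422.1), a scaffold of the Ras to MAP kinase cascade, differed by 0.21 ± 0.17, made of 0.50 in L and 0.09 to 0.11 in the other colonies, and by 0.10 without L. The fatty acid transporter SLC27 member 1/4 (XM_003394875.1) differed by 0.21 ± 0.16. The nuclear factor related to kappa-B binding protein (LOC100649343, XM_003399064.1), a subunit of a chromatin remodelling complex, was at 93.6, 129, 92.8 and 96.3 CPM after 161 against 78.7 to 89.6 CPM after 068. Its difference of 0.24 ± 0.12 was 0.08 without colony L.

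**Figure D4:**
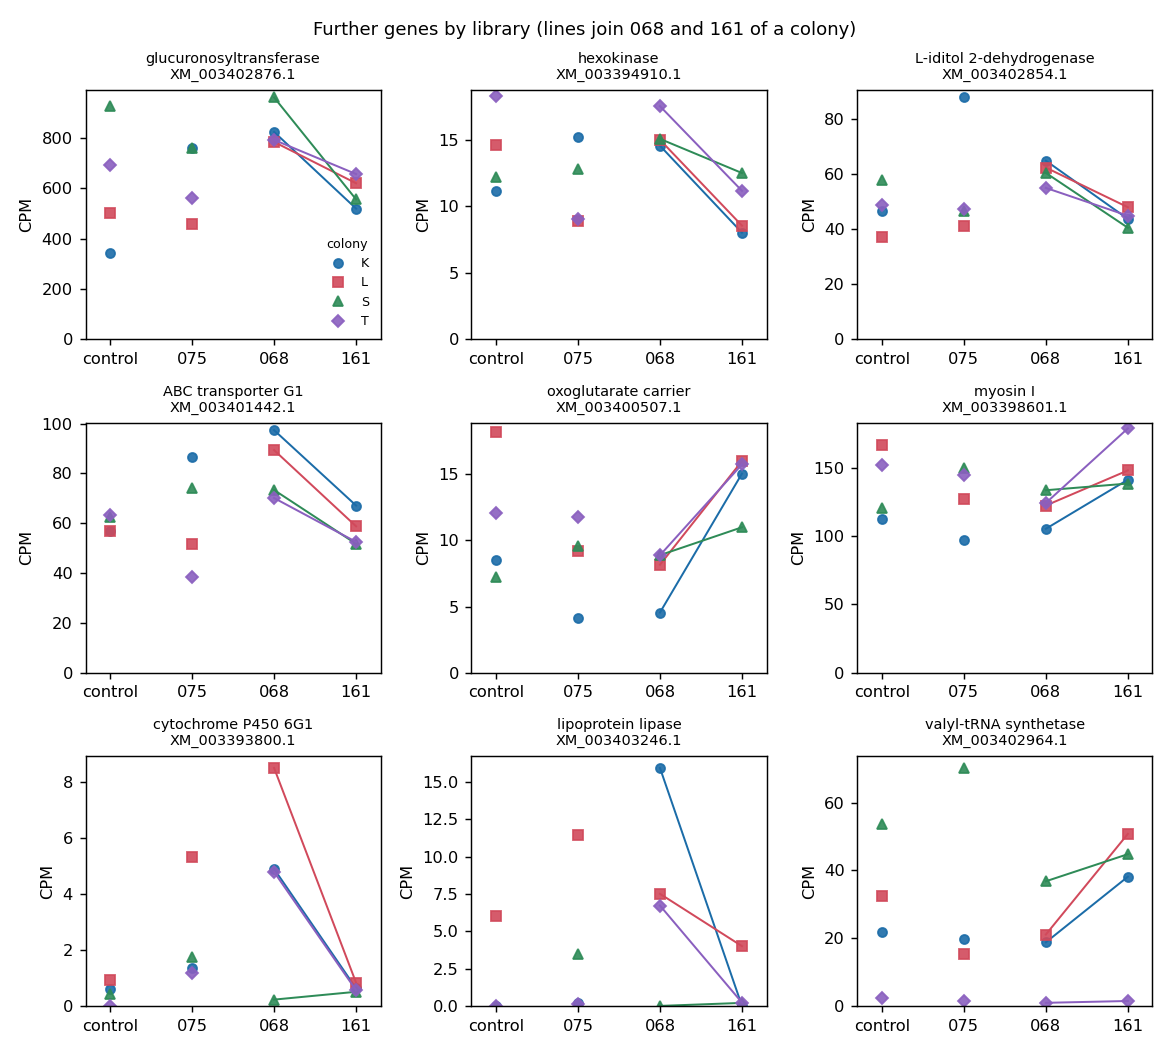
CPM of 9 further genes in each library, by exposure, with lines joining the 068 and 161 libraries of a colony. The first 6 do not overlap between 068 and 161. The last 3 overlap: cytochrome P450 6G1 and lipoprotein lipase were at 0 to 4 CPM after 161, and valyl-tRNA synthetase was at 0.911 to 2.31 CPM in T, where K, L and S are at 15.4 to 70.3 CPM.

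Several genes with small p values lay near the counting limit or differed more between colonies than between genotypes. A count of 0 allows up to 3 reads, or 0.303 to 0.414 CPM in the 8 libraries, for counting error only. Cytochrome P450 6G1 (LOC100647803, XM_003393800.1), of a family that oxidises toxins and is known for insecticide resistance in Drosophila, was at 4.89, 8.5, 0.225 and 4.78 CPM after 068 and at 0.627, 0.828, 0.504 and 0.559 CPM after 161. The difference of -2.62 ± 0.73 (unadjusted p = 0.00307) came from K, L and T, since in S both libraries were at the low level.

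Some lipid genes at similarly low levels had the same shape, and others the opposite one. Fatty acyl-CoA reductase (LOC100648933, XM_003394685.1), which makes fatty alcohols, was at 9.44, 1.99, 0 and 0.797 CPM after 068, and after 161 only L had reads, at 0.276 CPM. Lipoprotein lipase (LOC100646090, XM_003403246.1), which frees fatty acids from lipid particles, was at 15.9, 7.5, 0 and 6.72 CPM after 068 and at 0, 4, 0.202 and 0.223 CPM after 161. A pair of fatty acid elongases, singled out after their values were seen, followed them. The first (LOC100649601, XM_003401724.1) was at 8.42, 3.75, 0.675 and 1.82 CPM after 068 and at 0.502, 1.1, 0.202 and 0 CPM after 161, and the second (LOC100643669, XM_003401835.1) was at 3.41, 1.1, 0 and 2.96 CPM and at 0.502, 0.276, 0 and 0.335 CPM. In all 5 genes the S library was the lowest of the 4 after 068. High values were not limited to 068. After 075 the lipase was at 0.223, 11.5, 3.48 and 0.106 CPM. The first elongase was then at 0.223, 13, 6.31 and 0.425 CPM, and the second at 0.447, 8.04, 0.761 and 0.531 CPM. Among controls L was the highest for each of these, at 6.02, 4.4 and 2.78 CPM. A pair of further fatty acyl-CoA reductases lay the other way, higher after 161 in 4 of 4 colonies without overlap. XM_003402845.1 was at 1.71, 0.993, 0.675 and 1.14 CPM after 068 and at 2.26, 3.73, 1.71 and 3.69 CPM after 161 (unadjusted p = 0.0159). XM_003402758.1 was at 0.563 to 0.796 CPM after 068 and at 0.894 to 2.07 CPM after 161 (unadjusted p = 0.0715). The fitted log2 differences of such low counts depend on the added prior count and are not read as sizes.

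Valyl-tRNA synthetase (LOC100649646, XM_003402964.1), which charges the tRNA for valine, was at 18.8, 21.1, 36.8 and 0.911 CPM after 068 and at 38.1, 50.8, 44.8 and 1.45 CPM after 161. In T it was at 0.911 to 2.31 CPM under all 4 exposures, far below the other colonies. Lactosylceramide 4-alpha-galactosyltransferase (LOC100650768, XM_003396646.1), a glycolipid enzyme, was at 3.98, 4.08, 17.7 and 18.6 CPM after 068 and at 1.63, 1.93, 8.98 and 14.3 CPM after 161. It was lower in 4 of 4 colonies, by -0.87 ± 0.23 (unadjusted p = 0.0019), while K and L stood below S and T under all 4 exposures.

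Axonemal dynein heavy chain (XM_003395900.1), a motor of cilia and sperm tails, was at 51.4, 99.9, 133 and 114 CPM after 068 and at 97.9, 137, 138 and 162 CPM after 161, a difference of 0.48 ± 0.14 (unadjusted p = 0.00379). The CAP-Gly linker protein 1 (XR_132016.1), which binds growing microtubules, differed by 0.52 ± 0.14 (unadjusted p = 0.00244) and was higher in 4 of 4 colonies. Acid phosphatase (LOC100646942, XM_003394432.1) was at 11, 15.2, 28.9 and 40.8 CPM after 068 and at 12.8, 4.28, 16.1 and 13.7 CPM after 161, lower in L, S and T but not in K. The gene with the smallest p of all, XM_003402097.1, has no description and was singled out after its values were seen. It was at 0.683, 1.32, 0.9 and 3.99 CPM after 068 and at 10, 22.9, 1.11 and 7.82 CPM after 161, and its adjusted p was 0.112 by DESeq2 and 0.9995 by edgeR.

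Another 6 of the 20 described genes with the smallest p had overlapping groups. Diacylglycerol kinase (LOC100651833, XM_003394950.1), which turns the messenger diacylglycerol into phosphatidic acid, was at 4.44, 5.08, 4.05 and 4.1 CPM after 068 and at 8.03, 13.5, 4.04 and 7.82 CPM after 161. It was higher in K, L and T and level in S, with a difference of 0.84 ± 0.28 (unadjusted p = 0.00941). The TATA-box-binding protein (LOC100650180, XM_003402044.1), which marks the start of transcription, was higher in 4 of 4 colonies by 0.48 ± 0.16, made of 1.16 in L and 0.19 to 0.30 in the others, and by 0.24 without L.

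The ubiquitin ligase SH3RF (LOC100644423, XM_003402626.1) differed by 0.49 ± 0.17, or 0.31 without L, and transcription elongation factor B polypeptide 3 (XR_132117.1) by 0.47 ± 0.16, or 0.31 without L. Both were higher in 4 of 4 colonies. Forkhead box C (LOC100643129, XM_003398850.1), a transcription factor, was at 0, 0, 0.225 and 0.342 CPM after 068 and at 0.502, 3.59, 0 and 1.68 CPM after 161, with 1 library after 161 at 0 as well. The TRPC channel (LOC100651056, XM_003402132.1), a cation channel, was at 2.5, 0.221, 9 and 1.59 CPM after 068 and at 1, 0, 1.51 and 0.894 CPM after 161. It was lower in 4 of 4 colonies, with both L libraries below the counting limit.

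Immune genes gave no common direction. Lysozyme (XM_003400040.1), an enzyme that splits bacterial cell walls, was at 1488, 1585, 1687 and 1077 CPM after 068 and at 1496, 632, 1466 and 1474 CPM after 161. Only L was far apart, and the difference of -0.23 ± 0.23 was 0.07 without that colony. The dual oxidases, which make hydrogen peroxide at the gut surface, were at low levels. The first (XM_003394502.1) was at 2.73, 4.3, 4.28 and 2.96 CPM after 068 and at 4.52, 2.9, 3.73 and 3.69 CPM after 161, a difference of 0.05 ± 0.35, or 0.23 without L. The second (XM_003400429.1) was at 0.683 to 2.25 CPM after 068 and at 1.21 to 2.9 CPM after 161, a difference of 0.30 ± 0.47, or -0.11 without L. Each was higher after 161 in 2 colonies and lower in the other 2.

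Down syndrome cell adhesion molecule genes, immunoglobulin proteins with many splice forms that act in neurons and in insect immunity, were matched 6 times, and 3 had enough reads to be tested. The one of LOC100648077 (XM_003402417.1) was at 6.94, 5.52, 14.6 and 12.4 CPM after 068 and at 5.14, 8.97, 9.48 and 7.93 CPM after 161, a difference of -0.26 ± 0.31, or -0.59 without L. The like-1 gene XM_003393930.1 differed by -0.10 ± 0.40, or -0.65 without L, and the like-1 gene XM_003394934.1 by 0.37 ± 0.38, or 0.02 without L. In both L was the highest library after 161. The remaining 3 stayed below 1.4 CPM in all 8 libraries. Counts per gene do not show splice forms.

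Janus kinase 2 (LOC100642307, XM_003401903.1), the kinase of JAK/STAT signalling, was at 28.9, 30.2, 23.4 and 25.3 CPM after 068 and at 29.4, 33.5, 28 and 38.7 CPM after 161. It was higher in 4 of 4 colonies, by 0.26 ± 0.12 (unadjusted p = 0.0555), with the groups overlapping. Scavenger receptor class B member 1 (LOC100648651, XM_003399856.1), a lipid and pathogen receptor, was higher in K, L and T and lower in S, at 0.24 ± 0.19, or 0.11 without L. Serpin B (XM_003399140.1), an inhibitor of serine proteases, was at 20.4 and 27.8 CPM in S and at 0.331 to 2.26 CPM in the other 6 libraries. It was higher after 161 in 4 of 4 colonies, by 0.61 ± 0.40 (unadjusted p = 0.149), a smaller step than that between S and the other colonies.

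By list, 6 of 10 tested pathogen recognition genes, 7 of 21 Toll, Imd and JAK/STAT genes and 7 of 9 melanisation and serpin genes were higher after 161, beside 47.2% of all genes tested. None passed the test, had groups that did not overlap or was at an unadjusted p under 0.05. The medians were 0.048, -0.084 and 0.187. Toll, Imd and JAK/STAT genes stood at -0.149 in K, 0.081 in L, 0.07 in S and 0.221 in T, and at -0.097 without colony L. Pathogen recognition stood at 0.625 in L but at -0.135, -0.162 and -0.034 in K, S and T, and at -0.039 without L. Melanisation and serpins stood at 0.311 in K, 0.735 in L, -0.243 in S and -0.037 in T, and at 0.020 without colony L.

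Oxidative defence had 7 higher and 16 lower of 23 tested, with a median of -0.074 that was -0.536 in L and between -0.106 and 0.058 in the other colonies, and -0.046 without L. Groups did not overlap for 3 that were lower (13% of the list, beside 0.94% of all genes tested) and 1 that was higher (4.3%, beside 0.512%). Besides thioredoxin 1, the lower ones were the iron/manganese superoxide dismutase (XM_003398895.1), which turns superoxide into hydrogen peroxide, and thioredoxin domain protein 5 (LOC100650512, XM_003392958.1), an oxidoreductase of the endoplasmic reticulum. The dismutase was at 80.4, 88.7, 89.1 and 90.7 CPM after 068 and at 79.9, 57.3, 79.7 and 79.4 CPM after 161, so that K was nearly level and the difference of -0.25 ± 0.12 was -0.13 without L. Thioredoxin domain protein 5 differed by -0.71 ± 0.34, or -0.47 without L. The higher one was a peroxiredoxin (XM_003397906.1), which breaks down peroxides, at 0.683, 1.1, 1.91 and 2.28 CPM after 068 and at 3.14, 2.76, 3.23 and 2.35 CPM after 161. These members were named because their groups did not overlap.

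Ribosomal, mitochondrial, proteasome and secretory genes were more often lower than higher after 161, and in each list colony L had the lowest median. Of 96 ribosomal protein genes, 24 were higher and 72 lower, with a median of -0.107. The median was -0.101 in K, -0.205 in L, -0.017 in S and -0.128 in T, and -0.095 without colony L. At an unadjusted p under 0.05 there were 3, each lower (L26e, S23e and S3Ae), or 3.1% beside 0.999% of all genes tested. The smallest p was that of L26e (LOC100648461, XM_003401145.1), at 104, 146, 151 and 148 CPM after 068 and at 109, 77.3, 121 and 113 CPM after 161, a difference of -0.39 ± 0.15 (unadjusted p = 0.022), or -0.23 without L.

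Of 71 mitochondrial energy genes, 13 were higher and 58 lower. Their median of -0.120 was made of -0.555 in L and between -0.088 and 0.020 in the other colonies. Without colony L it was -0.032, with 30 of 71 higher. Cytochrome c oxidase subunit 6a (LOC100643317, XM_003394637.1), a part of the last complex of the respiratory chain, was at 47.3, 50, 60 and 41.7 CPM after 068 and at 47.8, 34.1, 39.6 and 29.7 CPM after 161. It differed by -0.40 ± 0.15, and only K was level.

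Of 36 proteasome genes, 6 were higher after 161. The list's median of -0.105 was -0.494 in L, and -0.010 in the fit without that colony. Of 41 secretory pathway genes, 8 were higher, and the median of -0.124 was -0.353 in L and -0.140 in K, and at -0.094 without colony L. The subunit gamma of the translocon-associated protein (LOC100650614, XM_003399387.1), which helps proteins enter the endoplasmic reticulum, was at 81, 72.7, 53.9 and 65.7 CPM after 068 and at 70.9, 28.3, 51.4 and 52.6 CPM after 161. It was lower in 4 of 4 colonies, by -1.36 in L and -0.32 to -0.07 in the others. Its difference of -0.47 ± 0.21 was -0.21 without L.

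Gut lining genes were more often higher, again with colony L at the extreme. Of 25 gut lining, mucin and chitin genes, 18 were higher. Their median of 0.081 was made of 0.725 in L, 0.067 in T, -0.193 in K and -0.146 in S, and -0.026 without colony L. Mucin-5B (XM_003401104.1), a gel-forming mucus protein in vertebrates, was at 10.7, 10.3, 14.2 and 10.4 CPM after 068 and at 11.2, 17.1, 12.9 and 21.4 CPM after 161, a difference of 0.46 ± 0.23. It was higher in T and L, and close to level in K and S. Of 23 epithelial renewal genes, 16 were higher (median 0.052), but without colony L 9 of 24 were, with a median of -0.016. The Notch gene (XR_131874.1), a receptor of stem cell fate in the fly gut, was at 7.85, 4.97, 14.1 and 16.2 CPM after 068 and at 8.91, 24.4, 12.6 and 18.5 CPM after 161. Its difference of 0.61 ± 0.33 was 0.08 without L.

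Transcript length and the markers of muscle and nervous system moved with the L difference. Malpighian tubule markers lay the other way in L, at a median of -0.254. The rank correlation of the log2 difference with gene length was 0.201 in L, -0.114 in K, -0.028 in S and 0.126 in T. The median length was 892 bases for ribosomal protein genes and 1248 for mitochondrial ones, 4265 for gut lining and 5131 for muscle markers, beside 2443 over all genes tested. With a length trend removed from each library, the medians were -0.055 for ribosomal proteins, -0.073 for mitochondrial genes, 0.105 for gut lining and -0.092 for chaperones, beside -0.008 over all genes.

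Muscle markers were higher in 7 of 7 tested, with a median of 0.182, at 0.672 in L and 0.338 in T against -0.112 in K and -0.051 in S, and at 0.039 without colony L. Their summed level was 1637 to 2002 CPM after 068 and 1699 to 2583 CPM after 161, and 1 of 13 matched markers had no reads in the 8 libraries. Troponin T (XM_003395903.1), a part of the contractile filament, differed by 0.32 ± 0.20, or 0.09 without L. Nervous system markers were higher in 25 of 38 tested, with a median of 0.041 that was 0.507 in L, and without colony L in 17 of 38, with a median of -0.018. They had a summed level of 4601 to 5319 CPM after 068 and 4201 to 6093 CPM after 161, and 3 of 61 matched markers had no reads. Malpighian tubule markers were higher in 10 of 25 tested, with a median of -0.071 that was 0.003 without colony L, and summed to 10441 to 11535 CPM after 068 and 10804 to 11141 CPM after 161. The marker with the smallest p was V-type ATPase subunit E (LOC100648858, XM_003395254.1), a part of the proton pump, at -0.30 ± 0.18 for the tubules. For the nervous system it was a synaptic vesicle glycoprotein 2 transporter (LOC100645598, XM_003397175.1), at -0.19 ± 0.12. Hemocyte markers summed to 75.4 to 126.6 CPM after 068 and 80.4 to 125.6 CPM after 161. The part of other tissues or of transcript length in the L differences was not tested beyond these values.

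**Figure D5:**
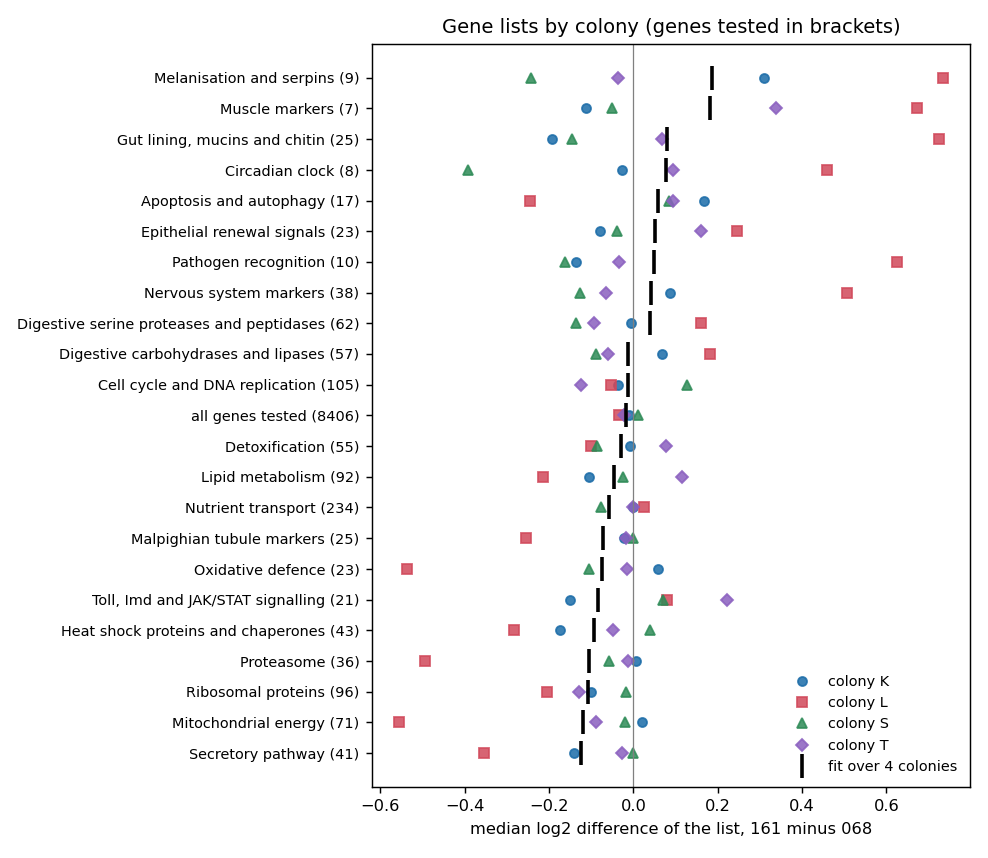
Median log2 difference, 161 minus 068, of each gene list with at least 5 tested genes, by colony (coloured symbols) and in the fit over 4 colonies (black bars). Colony L holds the most extreme symbols, from -0.555 for mitochondrial energy to 0.735 for melanisation and serpins, while the bars stay between -0.124 and 0.187.

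Lists of digestion, transport and detoxification had medians near that of all genes. Of 62 digestive serine proteases and peptidases, 36 were higher (median 0.039, or 0.014 without L). Chymotrypsin (LOC100642698, XM_003398194.1), a protein-cutting enzyme of the gut, was at 28.3, 33, 35.1 and 24.1 CPM after 068 and at 35.8, 53.5, 34.6 and 26.8 CPM after 161, a difference of 0.29 ± 0.14 (unadjusted p = 0.049), or 0.15 without L. Aminopeptidase N (LOC100646048, XM_003402559.1), which trims peptides at the gut surface, was the 1 member of 62 without overlap (1.6%, beside 0.94% of all genes tested that were lower without overlap), at 22.5, 26, 25.8 and 26.9 CPM after 068 and at 22.3, 8.55, 9.48 and 20.8 CPM after 161, a difference of -0.84 ± 0.57, or -0.50 without L. The summed level of the list was 69227 to 87831 CPM after 068 and 60979 to 107320 CPM after 161, higher after 161 in K and L and lower in S and T.

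Of 57 digestive carbohydrases and lipases, 28 were higher (median -0.012, or -0.058 without L). An alpha-mannosidase (XM_003403135.1), which trims mannose from glycans, was at 21.3, 19.4, 43.5 and 23.3 CPM after 068 and at 11.4, 13, 16.3 and 21.4 CPM after 161. It was lower in 4 of 4 colonies, by -0.78 ± 0.28 (unadjusted p = 0.0143), with overlap. Of 234 nutrient transport genes, 96 were higher (median -0.057, or -0.034 without L). Without overlap, 3 were higher (1.3%, beside 0.512%) and 2 lower (0.9%, beside 0.94%). The facilitated trehalose transporter (XR_132023.1), which carries the main blood sugar of insects, was at 31.3, 36.6, 42 and 41.9 CPM after 068 and at 30, 28, 21 and 34.7 CPM after 161, a difference of -0.42 ± 0.16 (unadjusted p = 0.0194). Both were named for an unadjusted p under 0.05, which 5 of the 234 (2.1%) and 2 of the 57 (3.5%) had, beside 1.82% of all genes tested.

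Of 92 lipid metabolism genes, 38 were higher (median -0.045, or 0.006 without L). Without overlap, 2 were higher (2.2%, beside 0.512%), the reductases above, and 0 were lower. A further elongase of very long chain fatty acids (LOC100651171, XM_003399474.1) was at 689, 559, 452 and 469 CPM after 068 and at 852, 868, 480.1 and 873 CPM after 161. It was higher in 4 of 4 colonies by 0.47 ± 0.19 (unadjusted p = 0.0263). Its controls, at 475, 741, 522 and 898 CPM, spread as widely. Of 55 detoxification genes, 25 were higher (median -0.029). A family 4 cytochrome P450 (LOC100648944, XM_003396873.1) was at 21, 17.3, 44.6 and 50.7 CPM after 068 and at 97.6, 117, 38.5 and 38.3 CPM after 161, so that K and L were higher and S and T lower. Its difference of 1.19 ± 0.53 was 0.79 without L. Of 105 cell cycle and DNA replication genes 51 were higher (median -0.013, or -0.024 without L), of 17 apoptosis and autophagy genes 9 (median 0.058), and of 8 circadian clock genes 5 (median 0.077), or 2 of 8 without colony L (median -0.106). The clock gene timeless (LOC100646408, XM_003394988.1) was at 1.12 to 1.99 CPM after 068 and at 0.376 to 1.51 CPM after 161, and the caspase with the smallest p (LOC100645000, XM_003395138.1), a protease of cell death, differed by 0.16 ± 0.14, or 0.03 without L. None of the members of these lists passed the test.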

How the data were processed

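Poly(A) RNA was sequenced on an Illumina HiSeq instrument, per the labels' protocols. Reads were handled with TopHat 1.9, per the submitters' processing notes; the counter, build and annotation are not given in the sources used here. The deposited table holds a read count per transcript record and library, per the file headers, and RPKM values that the authors made from the counts. The RPKM equalled count, length and total combined in 151539 of 151539 nonzero cells (relative tolerance 1e-06). Of counts from 1 to 9, 69.1% were even, against 49.6% from 200 to 999. Counting both mates would give that pattern; whether it was done was not tested, and counting limits would then be too low. The 16 coverage columns were left out.

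Counts were fitted with edgeR 4.0.16 in R 4.3.3 (TMM, filterByExpr, quasi-likelihood F-test, colony and exposure as factors, all 16 libraries, 9 residual degrees of freedom, Benjamini-Hochberg adjusted p of 0.05). Libraries pair by the colony in the labels, so colony is in the main fit. DESeq2 1.42.0 and limma 3.58.1 were alternatives. Colony differences are of log2 CPM (prior count 2). The fit was tested on simulated counts with 100 genes changed 2-fold and 100 changed 4-fold after 161. It recovered 42% of the 2-fold and 88% of the 4-fold changes, and called 10 of 8108 unchanged genes. The simulated counts had no colony effect and no library set apart, unlike the data, so recovery in the data themselves was not tested. With 1 pool of 3 workers per colony and exposure, p values measure the spread left after colony and exposure. That spread joins noise between pools with any response that differs between colonies, and these cannot be told apart here.

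Genes carry the deposited description if it scored at least 100 (6569 of 8120 described records). Symbols came from a RefSeq table that matched 5155 of 10635 records at 4923 loci, so some records share a locus and may share reads. The 26 lists were matched on descriptions, less 149 matches by spelling alone; no description matched the fat body list. Members and lists were chosen with earlier results of these data known. Named genes were the 20 described ones with the smallest p, the smallest p of each list, lysozyme, the dual oxidases and the Down syndrome cell adhesion molecules, and up to 8 in each direction without overlap at a mean of at least 10 CPM. Further list members without overlap or at an unadjusted p under 0.05, other chaperones and XM_003402097.1 were added after their values were seen.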

Additional observations from a re-analysis of the deposited data

Results flagged for a closer look

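In groups of 4 libraries, 19 of 126 tested had 1 library set apart from the other 3 by Dixon's test. The groups were those of the 63 named genes after each genotype. Chance flags about 1 group in 20 where groups are independent, normal and not selected. These genes were picked from the same values and share the same 8 libraries, so the 19 are not read as an excess. No cause was tested.

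Colony L after genotype 161 was the library set apart in 7 of these. It was the lowest of its group for phosphoglucomutase (XM_003393182.1, 11.5 CPM), lysozyme (XM_003400040.1, 632 CPM) and cell cycle related kinase (XM_003403276.1, 0.276 CPM). It was the highest for fatty acyl-CoA reductase (XM_003394685.1, 0.276 CPM, with the others at 0, so that all 4 lie below the counting limit and the flag says nothing of L), lipoprotein lipase (XM_003403246.1, 4.0 CPM), kinase suppressor of Ras 1 (XM_003394422.1, 49.8 CPM) and nuclear factor related to kappa-B binding protein (XM_003399064.1, 129 CPM). Colony L after 068 was the highest for thioredoxin 1 (XM_003400917.1, 85.3 CPM) and the lowest for the fatty acid transporter SLC27 member 1/4 (XM_003394875.1, 26.1 CPM) and for XM_003399064.1 (78.7 CPM).

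Colony K after 068 was the lowest for the oxoglutarate carrier (XM_003400507.1, 4.55 CPM) and ribosomal protein L26e (XM_003401145.1, 104 CPM). It was the highest for scavenger receptor class B member 1 (XM_003399856.1, 107 CPM) and the Down syndrome cell adhesion molecule like-1 gene XM_003393849.1 (0.683 CPM). Colony K after 161 was the lowest for transcription elongation factor B polypeptide 3 (XR_132117.1, 63.9 CPM). Colony S was the highest for serpin B (XM_003399140.1) after 161 (27.8 CPM) and after 068 (20.4 CPM), and after 068 for mucin-5B (XM_003401104.1, 14.2 CPM). After 161 it was the lowest for JNK-interacting protein 3 (XM_003395922.1, 56.1 CPM).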

How the results depend on the processing

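No gene was called under any of the 15 alternatives, and the smallest adjusted p was 0.112, by DESeq2. Genes at an unadjusted p under 0.05 numbered 153, and 80 with the 8 libraries alone, 95 with a stricter count filter and 236 with K control, S 075 and L 161 left out. Leaving out 1 colony gave 115 (without T) to 374 (without K), with 242 without S. In the fit with no replicate block, which drops the pairing by colony, there were 136 and again 0 called. Of 882 fits of a named gene, 10 reversed sign, in 6 genes, none of them called. Lysozyme (XM_003400040.1) was at 0.03 without the L 161 library and at 0.027 with the 3 libraries left out. Leaving out 1 colony at a time moved it from -0.459 to 0.073 (positive without L), integrin alpha 8 (XM_003400092.1) from -0.063 (without L) to 0.497, aubergine (XM_003400305.1) from -0.052 (without S) to 0.279, dual oxidase XM_003394502.1 from -0.152 (without K; -0.012 without T) to 0.234, dual oxidase XM_003400429.1 from -0.107 (without L) to 0.787, and the like-1 gene XM_003393930.1 from -0.651 to 0.344 (without T; 0.059 without K). The median of the nutrient transport list ran from -0.060 to -0.006 (without S), and 35 of 325 list medians changed sign, in 15 of 25 lists. The causes were not tested. With 1 pool per colony and genotype, differences smaller than the spread left after colony and exposure could not be seen. Genes near 3 reads rest on counting error.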
